A study of Mus musculus with 9 samples.

Results

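The mouse clustered protocadherin loci were followed in reduced representation bisulfite sequencing of embryos made by nuclear transfer and of the fibroblasts of the kind used as nuclear donors. The loci are chr18:37080000-38010000 on mouse build mm9, described as an alpha interval (37080000 to 37410000), a beta interval (37410000 to 37700000), the stretch between beta and gamma (37700000 to 37800000) and a gamma interval (37800000 to 38010000). They were cut into tiles of 100 bp, and a tile was kept where each of the 8 samples had at least 5 calls, a call being one read of the methylation state of one CpG. Of 540 tiles with any call, 272 were kept: 80 in alpha, 51 in beta, 30 between beta and gamma and 111 in gamma. Over the genome the same minimum kept 352692 tiles.

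The NT embryos (label NTZy14) were built from enucleated C57/B6 oocytes that received an adult male tail-tip fibroblast nucleus, were activated with strontium chloride and cytochalasin B, and were freed of their zona. The fibroblasts (label TT) were grown in culture from such tail tips, passaged and taken at confluence. Each stage held 4 samples: 1 and 2 of the strain label BDF1-CAST, and 3 and 4 of the strain label X1. Fibroblast sample 1 sums a library and its resequencing, and the sources used here do not give how many embryos or animals made up a sample, what X1 is or what the digits of NTZy14 mean. The comparison asks how methylation carried in by a somatic nucleus stands after transfer into the egg.

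Clustered protocadherins are cell-surface adhesion proteins, best known from neurons, where each cell uses a few of the many genes and so carries its own surface label. In alpha and gamma, many variable exons, each behind its own promoter, are spliced to shared constant exons, whereas each beta gene is a single exon. Promoter choice involves CTCF, a DNA-binding looping factor, and methylation of unused promoters, some of which is placed by the methyltransferase Dnmt3b in the early embryo. In the RefSeq gene order of build GRCm38, the clusters run Pcdha1 to Pcdhac2 (14 genes), Pcdhb1 to Pcdhb22 (22 genes) and Pcdhga1 to Pcdhgc5 (22 genes, 21 of them protein coding), with Slc25a2, a mitochondrial amino acid carrier, and Taf7, a subunit of the general transcription factor TFIID, between beta and gamma. That build differs from mm9, so no tile below is assigned to a gene, an exon or a promoter, and positions are all in mm9. The exons of a cluster resemble each other, and what was done with reads matching more than 1 place is not given in the sources used.

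NT embryo libraries held 25239364 to 30396273 calls over 1376884 to 1815562 CpGs, and fibroblast libraries 35442175 to 41466097 calls over 1584331 to 1886972 CpGs. In the protocadherin tiles the median was 37.0 calls per tile and sample in NT embryos and 68.0 in fibroblasts. Of the 268 tiles left out, 86 fell short of 5 calls only in NT embryo samples, 0 only in fibroblast samples and 182 in both. The X1 samples lacked more tiles than the BDF1-CAST samples, with 74 tiles short only in X1 and 18 short only in BDF1-CAST. The 16 tiles whose poorest sample had exactly 5 calls had median levels of 55.3% in NT embryos and 66.7% in fibroblasts, and the 12 just outside, at 4 calls, 55.3% in NT embryos and 74.4% in fibroblasts. Of the 900 CpGs with calls in the kept tiles, 641 had calls in all 8 samples, 20 in all 4 BDF1-CAST samples and no X1 sample, and 0 the other way round.

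The mean level of the protocadherin tiles, each tile weighted equally, was 43.9, 47.0, 53.8 and 50.9% in NT embryo samples 1 to 4, against 51.1, 49.6, 55.5 and 53.3% in fibroblast samples 1 to 4. These ranges overlapped. The means were 48.9 ± 4.36% in NT embryos and 52.4 ± 2.60% in fibroblasts (SD, n = 4 each), a difference of -3.46 points, whereas over all 352692 tiles they were 44.6 ± 3.60% in NT embryos and 52.5 ± 1.67% in fibroblasts, a difference of -7.83 points. In the tiles of the 1 Mb on either side of the loci (478 tiles) the difference was -7.47 points. No test was made of a mean over these tiles, here or below.

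The difference was widest in beta and near 0 in gamma. Beta tiles averaged 51.3, 56.4, 61.5 and 61.1% in NT embryos, against 67.1, 63.6, 69.2 and 68.9% in fibroblasts, so each embryo sample lay below each fibroblast sample, and the means differed by -9.62 points (57.6 ± 4.75% in NT embryos and 67.2 ± 2.58% in fibroblasts). The samples also separated in this way over all tiles (41.4 to 48.8% in NT embryos, 50.4 to 54.3% in fibroblasts). The same held in the 1 Mb on either side (21.3 to 26.5% in NT embryos, 29.9 to 32.9% in fibroblasts). Between beta and gamma, the most methylated stretch, the means were 74.2 ± 4.70% in NT embryos and 81.5 ± 2.44% in fibroblasts. In alpha they were 52.4 ± 5.37% in NT embryos and 55.5 ± 3.69% in fibroblasts, with overlapping samples. Gamma tiles averaged 30.3, 35.3, 40.1 and 36.6% in NT embryos, against 33.9, 33.4, 38.4 and 36.1% in fibroblasts. Those values interleave, and the gamma means of 35.6 ± 4.03% in NT embryos and 35.5 ± 2.30% in fibroblasts differed by 0.134 points. By single tiles, 70.6% of beta tiles and 52.3% of gamma tiles had a lower mean in NT embryos, against 72.6% of all tiles.

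**Figure D1:**
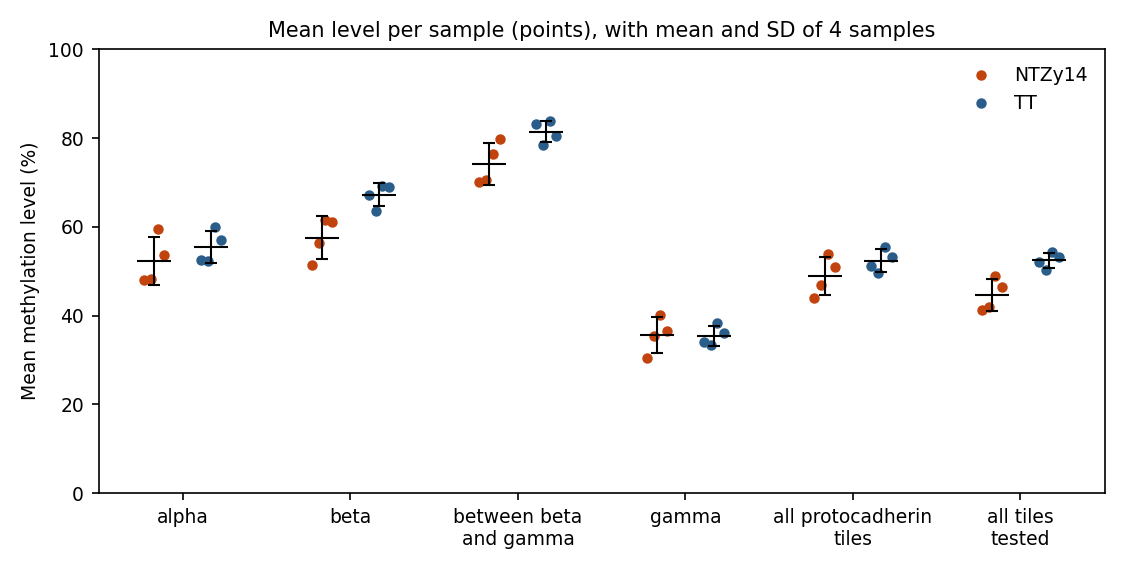
Mean methylation level (percent, vertical axis) of each NT embryo sample (NTZy14) and each fibroblast sample (TT) in the 4 intervals, over all 272 protocadherin tiles and over all tiles tested; horizontal bars show the mean of 4 samples and error bars the SD. The samples separate by stage in beta (57.6% in NT embryos, 67.2% in fibroblasts) and over all tiles tested. They interleave in gamma (35.6% in NT embryos, 35.5% in fibroblasts).

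**Figure D2:**
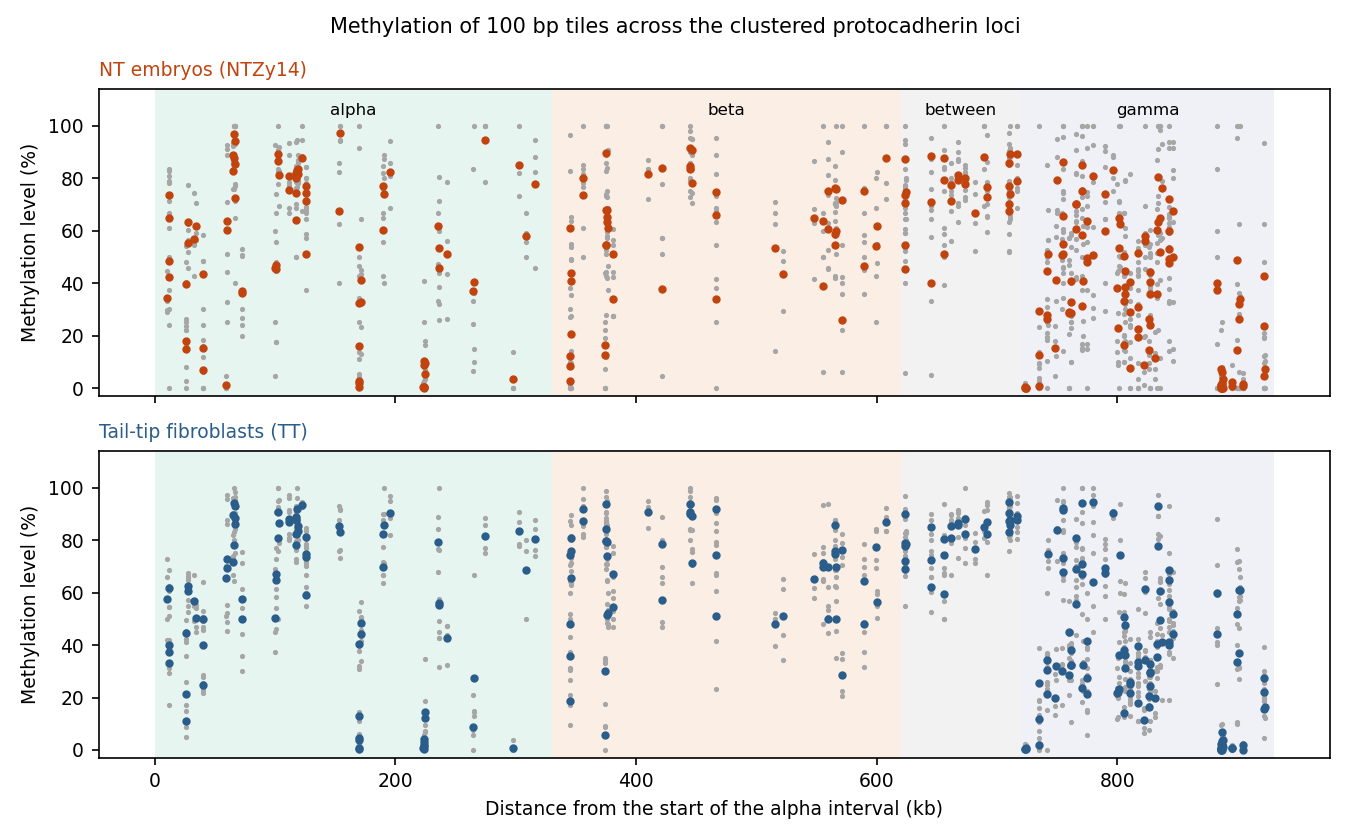
Methylation level (percent) of each protocadherin tile against its distance in kb from the start of the alpha interval, with NT embryos above and fibroblasts below; grey points are single samples and coloured points the mean of 4. Of 50 tiles under 20% in fibroblasts 47 are under 20% in NT embryos, and the grey points spread more widely in the embryos.

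In both stages the loci held many tiles of middling methylation, which are less common over the genome. In fibroblasts 155 of 272 tiles (57.0%) had a mean level from 20 to under 80%, against 28.3% of all tiles. The share was 47.5% in alpha, 70.6% in beta, 33.3% between beta and gamma and 64.0% in gamma. Counted sample by sample, 51.5, 61.0, 50 and 42.3% of tiles lay in that range in NT embryos, against 54.4, 54.0, 52.6 and 52.2% in fibroblasts. The averages were 51.2 ± 7.70% in NT embryos and 53.3 ± 1.08% in fibroblasts, so the stages overlapped and the embryo samples differed more from each other. Counted in this way, the intervals did not all move alike. In gamma the average was 45.3 ± 5.86% in NT embryos and 57.9 ± 3.48% in fibroblasts. Between beta and gamma it was 60 ± 18.1% in NT embryos and 33.3 ± 10.5% in fibroblasts. Alpha had 49.1% in NT embryos and 47.8% in fibroblasts, and beta 62.3% in NT embryos and 63.7% in fibroblasts. Over all tiles the share was 38.4 ± 5.99% in NT embryos and 29.0 ± 3.04% in fibroblasts. The drop in gamma depended on the measure. By the mean level of 4 samples, 64.9% of gamma tiles lay in that range in NT embryos and 64.0% in fibroblasts. Of 113 gamma CpGs with at least 10 calls in every sample, 33.0 ± 7.56% did so in NT embryos and 38.7 ± 2.83% in fibroblasts. Gamma tiles had a median of 41 calls per sample in NT embryos and 84.5 in fibroblasts.

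Of 3 classes of CpG density, the contrast with the genome was widest in the densest. CpG density was deposited by the authors per tile, and counts the CpGs within 50 bp on either side of a CpG, averaged over the tile. Of the 71 protocadherin tiles with a density of 6 or more, 46.5% lay between 20 and 80% in fibroblasts, against 7.71% of such tiles over the genome. The median level of these 71 tiles was 36.1% in NT embryos and 32.2% in fibroblasts, whereas dense tiles over the genome had medians of 1.58% in NT embryos and 1.72% in fibroblasts. Beta tiles with a density of 6 or more were few (5), with mean levels of 58.6% in NT embryos and 65.9% in fibroblasts.

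Most tiles already low in fibroblasts were low in embryos too. Of 50 tiles under 20% in fibroblasts, 47 (94%) were under 20% in NT embryos, against 96.2% of such tiles over the genome. The means of the 50 were 6.11 ± 2.35% in NT embryos and 5.64 ± 0.808% in fibroblasts. Joining tiles whose starts lie at most 1000 bp apart gave 95 blocks, 41 of them with at least 3 tiles. The longest block of gamma, chr18:37965900-37967699 with 14 tiles and 64 CpGs, averaged 0.928, 1.77, 2.47 and 1.5% in NT embryos, against 1.58, 1.64, 1.97 and 1.97% in fibroblasts. Its tile at 37966200 had no methylated call in any of the 8 samples at 33 to 142 calls each. The longest block of alpha, chr18:37303400-37304599 with 8 tiles and 57 CpGs, averaged 4.37 ± 4.25% in NT embryos and 4.80 ± 2.06% in fibroblasts. At the start of the gamma interval, 4 tiles with 29 CpGs at chr18:37803500-37803899 averaged 0.115 ± 0.230% in NT embryos and 0.584 ± 0.353% in fibroblasts. This last block was picked out after its values were seen.

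Among the 92 tiles from 20 to under 60% in fibroblasts, the gamma tiles stood higher in embryos. The 54 such gamma tiles averaged 36.6, 40.2, 46.7 and 40.5% in NT embryo samples 1 to 4, against 32.9, 31.5, 39.9 and 35.3% in fibroblast samples 1 to 4. Within each strain, both embryo samples lay above both fibroblast samples, while over the strains the ranges overlapped. The means were 41.0 ± 4.19% in NT embryos and 34.9 ± 3.66% in fibroblasts, a difference of 6.10 points, and 17 of the 54 tiles (31.5%) were lower in NT embryos. Over all tiles of the 20 to 60% class the difference was -5.35 points, and 62.6% were lower. The 22 alpha tiles of that class differed by -2.84 points and the 15 beta tiles by -4.95 points. The class is wide, and the gamma tiles started lower within it. Its fibroblast means were 41.9% over all tiles, 44.9% in alpha and 47.5% in beta. How far the contrast goes with this lower start was not tested.

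Because the same fibroblast samples place a tile in its class and enter its change, the class was also taken from the fibroblasts of one strain and the change from the other strain, a choice made after seeing the data. Gamma tiles at 20 to 60% then differed by 6.09 points in X1 and 5.74 points in BDF1-CAST. All tiles of that class differed by -5.32 points in X1 and -8.64 points in BDF1-CAST. Beta tiles differed by -8.86 points in X1 and -5.55 points in BDF1-CAST. Alpha tiles changed sign between the strains, with -6.79 points in X1 and 2.15 points in BDF1-CAST. Above that level gamma tiles lay lower in embryos: the 8 gamma tiles at 80% or more in fibroblasts averaged 72.3 ± 7.46% in NT embryos and 90.1 ± 3.24% in fibroblasts, and all 8 had the lower mean in NT embryos. At that level the mean difference was -17.8 points in gamma, -13.6 points in beta (13 tiles), -4.46 points in alpha (26 tiles) and -13.4 points over all tiles, of which 86.3% were lower in NT embryos.

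**Figure D3:**
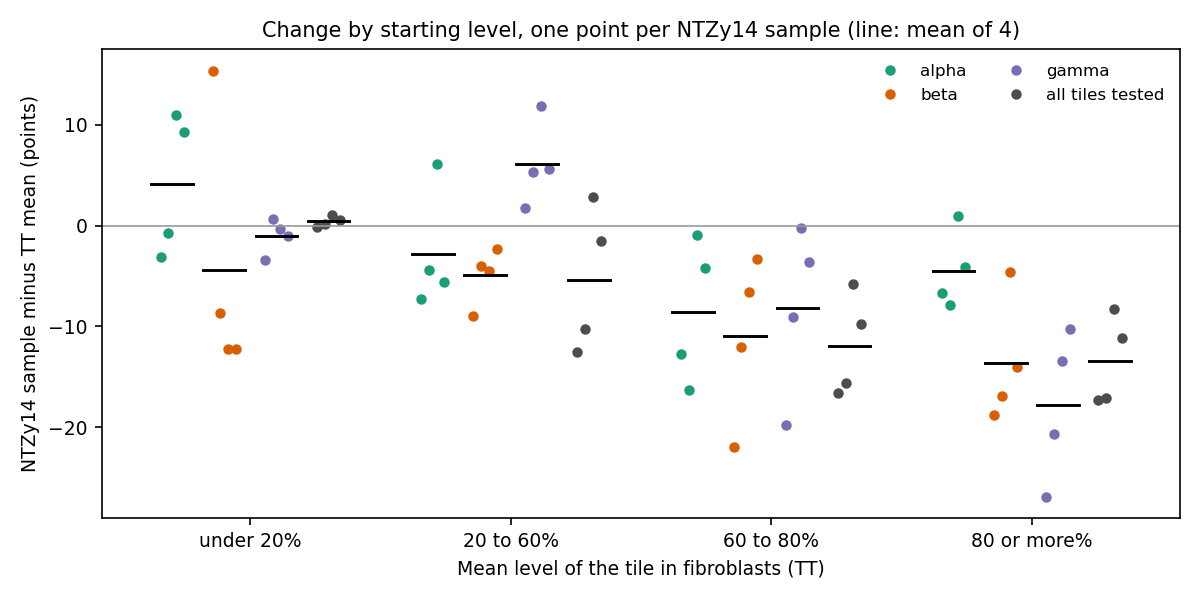
Level of each NT embryo sample minus the mean of the 4 fibroblast samples (percentage points, vertical axis), for tiles grouped by their mean fibroblast level (horizontal axis), in alpha, beta, gamma and all tiles tested; black lines are means of 4 samples. At 20 to 60% all 4 embryo samples lie above 0 in gamma (mean 6.10 points), whereas the mean over all tiles is -5.35 points; the class under 20% holds only 2 beta tiles.

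Single tiles were compared through their methylated and unmethylated calls in a quasi-binomial regression on stage and strain, its dispersion moderated over all tiles with limma and p-values adjusted by Benjamini-Hochberg over all 352692 tiles. Calling a tile took an adjusted p under 0.05 and at least 20 points between mean levels. By this rule 9 of 272 protocadherin tiles were called, or 3.31%, against 5.69% of all tiles. Of these, 6 were lower in NT embryos (2.21% of the protocadherin tiles, against 5.49% of all) and 3 were higher (1.10%, against 0.200%). The 3 higher ones all lay in gamma. In the 1 Mb on either side, 6.90% of tiles were called lower and 1.05% higher, so the share of rises there was like that at these loci. Of tiles from 20 to under 60% in fibroblasts, 3.26% at these loci were called higher. The like share was 4.05% in the 1 Mb on either side and 0.937% over all tiles. At an unadjusted p under 0.05 the share of protocadherin tiles was 20.6%, against 27.9% of all tiles. The groups did not overlap in 12 tiles with all embryo samples below all fibroblast samples (4.41%, against 12.2% of all tiles) and in 7 tiles with all above (2.57%, against 0.873%). Without fibroblast sample 1 the quasi-binomial model called 0 tiles, at these loci and over the genome, with 44 protocadherin tiles at an unadjusted p under 0.05. The count at these loci was 3 without fibroblast sample 2, 4 without fibroblast sample 4, and 5 without fibroblast sample 3, embryo sample 1 or embryo sample 2. The calls described below held under 15 of 17 alternatives at 37881600 and at 37645700, 13 of 15 at 37139700, 13 of 17 at 37790000 and 11 of 16 at 37425000. They held under only 5 of 17 at 37903300, 5 of 16 at 37090200, 4 of 17 at 37834200 and 4 of 16 at 37834900. Among these alternatives, dropping the minimum difference could not undo a call. Call minimums of 10 and 20 left the levels of a tile as they were.

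The gamma tile chr18:37881600-37881699 was higher in NT embryos, at 71.0, 66.4, 50.4 and 71.3%, against 21.5, 22.3, 25.4 and 23.8% in fibroblasts, on 126 to 438 calls per sample. No embryo sample came near the fibroblast range. The means were 64.8 ± 9.85% in NT embryos and 23.2 ± 1.73% in fibroblasts, a difference of 41.5 points (adjusted p = 0.0088 by the quasi-binomial F test). By CpG, at 37881613 the levels were 55.6, 59.2, 38.4 and 80.9% in NT embryos, against 24.3, 26.6, 40.5 and 33.0% in fibroblasts, so embryo sample 3 lay within the fibroblast range there. At 37881625 the means were 69.8% in NT embryos and 25.9% in fibroblasts, and at 37881636 they were 66.0% in NT embryos and 12.8% in fibroblasts.

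Both other gamma tiles that rose showed smaller differences. At chr18:37903300-37903399 the levels were 45.2, 59.1, 58.3 and 69.2% in NT embryos, against 26.5, 35.3, 37.9 and 38.2% in fibroblasts (adjusted p = 0.0335), with no overlap. At chr18:37834200-37834299 they were 66.7, 56.7, 30 and 48.8% in NT embryos, against 38.7, 32.6, 17.1 and 32.4% in fibroblasts (adjusted p = 0.0314). Here the embryo sample at 30% lay within the fibroblast range, and 4 of the 6 CpGs of the tile had calls only in BDF1-CAST samples. In the same block, the gamma tile chr18:37834900-37834999 went the other way, with 45.7, 43.8, 72.2 and 100% in NT embryos, against 94.9, 87.5, 92.3 and 91.7% in fibroblasts (adjusted p = 0.0413). Its embryo samples ranged from far below the fibroblasts to above them.

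Of the called tiles, the widest fall was at the alpha tile chr18:37139700-37139799, a single CpG with 5 to 49 calls. It was at 0, 4.55, 0 and 0% in NT embryos, against 51.0, 72.7, 69.2 and 70.0% in fibroblasts. The means were 1.14 ± 2.27% in NT embryos and 65.7 ± 9.93% in fibroblasts, so almost no methylated call remained in the embryos (adjusted p = 0.0082). The other alpha tile that fell, chr18:37090200-37090299, had means of 34.2 ± 7.10% in NT embryos and 57.7 ± 14.3% in fibroblasts, and 4 of its 7 CpGs had calls only in BDF1-CAST samples (adjusted p = 0.0316).

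In beta, the tile chr18:37645700-37645799 fell to 42.0, 54.5, 67.2 and 55.1% in NT embryos, against 87.5, 83.8, 84.7 and 86.3% in fibroblasts, on 61 to 506 calls (adjusted p = 0.0067). Neighbouring CpGs of this tile took opposite states within one embryo sample. At 37645715 the levels were 9.09, 54.0, 0 and 32.7% in NT embryos, against 91.3, 84.6, 87.5 and 91.9% in fibroblasts, whereas at the next CpG, 37645721, they were 100, 52.0, 100 and 50.9% in NT embryos, against 84.0, 85.9, 95.9 and 89.9% in fibroblasts. Embryo samples 1 and 3 thus carried 1 CpG near 0 beside 1 at 100%. No molecular identifiers are recorded for the reads, so how many molecules lie behind such levels is unknown.

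The beta tile chr18:37425000-37425099, again a single CpG, was at 3.12, 12.5, 10.0 and 8.33% in NT embryos, against 43.2, 51.7, 37.5 and 60% in fibroblasts (adjusted p = 0.0177). It belongs to the block with the widest difference among those of at least 3 tiles, chr18:37424800-37425899 with 7 tiles and 16 CpGs. That block averaged 36.5, 26.9, 35.2 and 10.1% in NT embryos, against 54.6, 55.9, 54.3 and 62.9% in fibroblasts, with no overlap. The block as a whole lay lower, yet its tile at 37425500 was at 96.5, 27.1, 82.8 and 38.1% in NT embryos, against 64.4, 70.6, 87.2 and 75.4% in fibroblasts. The last tile that fell, chr18:37790000-37790099 between beta and gamma, had means of 67.4 ± 8.67% in NT embryos and 90.5 ± 2.47% in fibroblasts over 7 CpGs (adjusted p = 0.0140).

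**Figure D4:**
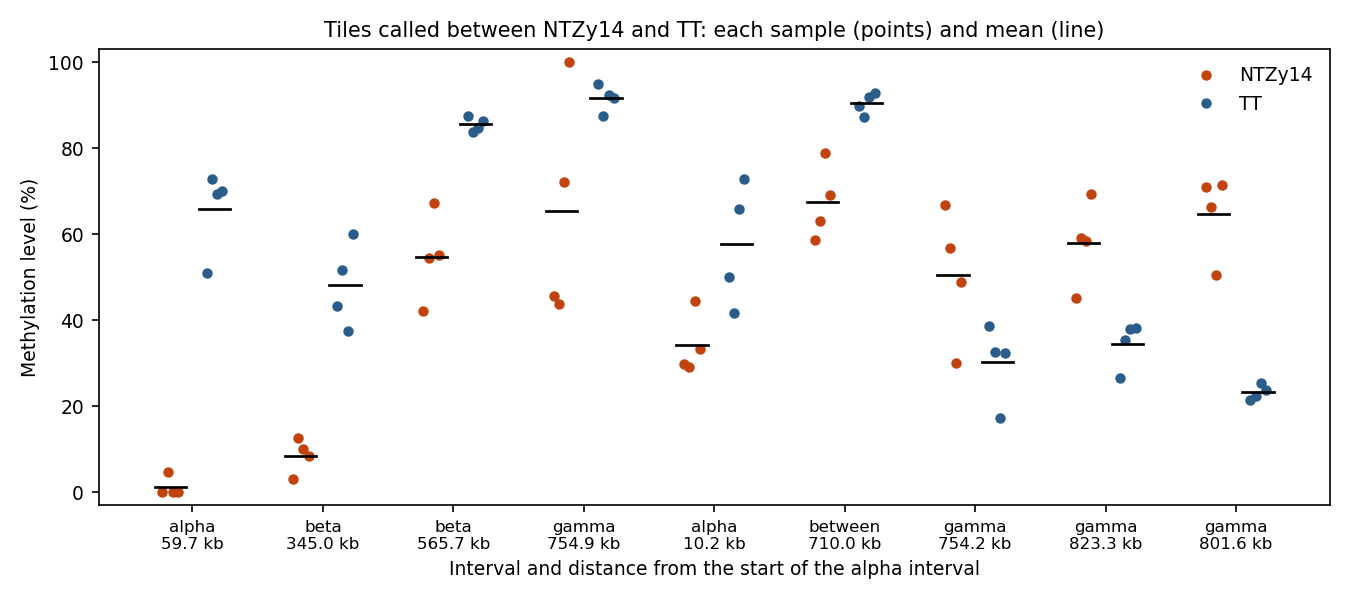
Methylation level (percent) of the 9 called tiles in each NT embryo sample (NTZy14) and each fibroblast sample (TT), with lines at the means; tiles are named by interval and distance in kb from the start of the alpha interval and ordered from the largest fall (1.14% in NT embryos, 65.7% in fibroblasts) to the largest rise. The 3 tiles that rose are the last 3 and all lie in gamma.

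Of the 41 blocks with at least 3 tiles, 4 had every embryo sample below every fibroblast sample (9.76%) and 0 had every one above. Over the 36724 such blocks of the genome these shares were 18.9% and 0.912%, so blocks that lay wholly below made up a smaller share at these loci. Beside the beta block these were chr18:37120100-37120599 in alpha (means of 21.8% in NT embryos and 38.3% in fibroblasts), chr18:37197500-37197999 in alpha (76.8% in NT embryos and 85.7% in fibroblasts) and chr18:37703400-37704099 between beta and gamma (67.7% in NT embryos and 77.6% in fibroblasts). The longest beta block, chr18:37454400-37456499 with 10 tiles, averaged 43.4, 46.6, 58.3 and 72.9% in NT embryos, against 62.1, 61.4, 63.5 and 64.9% in fibroblasts. Its fibroblast samples agreed within a few points, and its embryo samples lay on both sides of them.

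The extremes of each cluster held their place in most samples. The most methylated alpha tile in fibroblasts, at 37145900, had means of 96.9% in NT embryos and 94.1% in fibroblasts, and the least methylated one, at 37249500, 0.481% in NT embryos and 0.420% in fibroblasts. In beta the most methylated tile, at 37524800, had means of 91.3% in NT embryos and 94.0% in fibroblasts, and the least methylated one, at 37454400, 12.7 ± 21.0% in NT embryos and 5.89 ± 4.17% in fibroblasts. The most methylated gamma tile in fibroblasts, at 37859500, a single CpG, was at 92.5, 30.6, 100 and 100% in NT embryos, against 93.2, 97.1, 100 and 87.1% in fibroblasts. None of these 5 tiles was called, nor was the gamma tile without a methylated call.

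Embryo samples differed from each other far more than fibroblast samples did. In tiles from 20 to under 80% in fibroblasts, the median SD over 4 samples was 18.7 points in NT embryos and 8.41 points in fibroblasts, and the SD was larger in NT embryos in 134 of 155 tiles (86.5%). Over all tiles of that level these medians were 18.2 points in NT embryos and 9.38 points in fibroblasts, and the share 80%, so the protocadherin tiles lay close to the genome in this respect. A range of at least 50 points between samples occurred in 62 of 155 tiles (40%) in NT embryos and 6 (3.87%) in fibroblasts, against 38.0% in NT embryos and 3.03% in fibroblasts over all tiles. In gamma the shares were 50.7% of 71 tiles in NT embryos and 2.82% in fibroblasts, and in the 1 Mb on either side 47.3% in NT embryos and 3.05% in fibroblasts. The lower depth of the embryos moves with this spread. The variance between samples over that which counting calls would give was 4.67 in NT embryos and 2.46 in fibroblasts, a ratio that takes the number of calls, but not repeated reads of one molecule, into account. Over all tiles of that level the ratio was 3.94 in NT embryos and 1.94 in fibroblasts.

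Pairs of samples were compared over the same 155 tiles. The median absolute difference per tile ran from 16.6 to 21.6 points between NT embryo samples, from 7.71 to 11.3 points between fibroblast samples, and was 7.59 points between the fibroblast library and its own resequencing (154 of these tiles). Examples, chosen after their values were seen among tiles with at least 20 calls in each sample, lie in gamma. The tile chr18:37922900-37922999 was at 100, 59.0, 63.0 and 17.9% in NT embryos, against 64.0, 57.2, 50 and 53.7% in fibroblasts, on 84 to 484 calls. The tile chr18:38002200-38002299 was at 48.0, 20.8, 93.3 and 9.38% in NT embryos, against 18.7, 20.2, 30 and 19.5% in fibroblasts. In the first tile single embryo samples lay far above and far below the fibroblasts, and in the second 2 embryo samples lay above the fibroblast range and 1 below it. The 41 blocks cover tiles of all levels. Their averages had a median SD of 9.77 points in NT embryos and 4.05 points in fibroblasts. The SD was larger in NT embryos in 34 of the blocks.

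**Figure D5:**
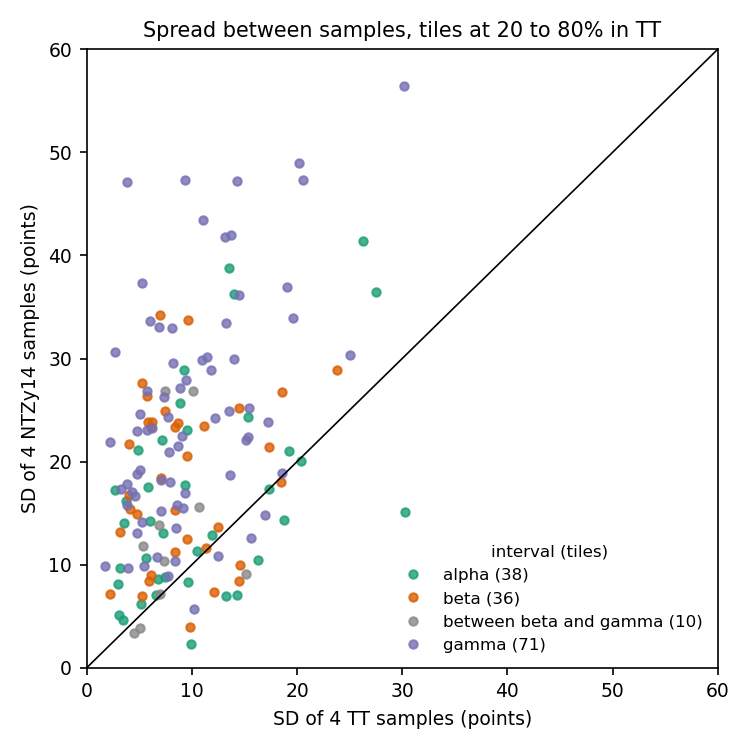
SD between the 4 NT embryo samples (vertical axis, percentage points) against the SD between the 4 fibroblast samples (horizontal axis) for the 155 protocadherin tiles at 20 to 80% in fibroblasts, coloured by interval; the line marks equal SD. Of these tiles 134 lie above the line.

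Strain made a called difference at 1 of 272 tiles (0.368%, against 0.0113% of all tiles). At an unadjusted p under 0.05 the share for strain was 11.8%, against 15.2% of all tiles. The alpha tile chr18:37140000-37140099 was at 91.2 and 92.5% in X1 embryos and 97.1 and 95.6% in X1 fibroblasts, against 25.0 and 32.8% in BDF1-CAST embryos and 45.5 and 52.3% in BDF1-CAST fibroblasts. The strain means, over both stages, were 94.1 ± 2.73% in X1 and 38.9 ± 12.3% in BDF1-CAST (SD, n = 4 each), a difference of 55.2 points (adjusted p = 0.0230 for the strain term). No sample of one strain came near the other, and the difference remained from 50.6 to 59.7 points when each sample was left out in turn, although the adjusted p was then 0.0596 to 0.328. The 3 CpGs with calls in all 8 samples lay higher in X1 at the same stage. At 37140006 embryos were at 73.7 and 100% in X1 and 26.1 and 25.7% in BDF1-CAST. Fibroblasts there were at 93.8 and 96.9% in X1 and 33.6 and 32.1% in BDF1-CAST. At 37140098 the fibroblasts of the strains were closer, at 100 and 100% in X1 and 76.2 and 84.0% in BDF1-CAST. Embryos there were at 100 and 88.5% in X1 and 28.6 and 40% in BDF1-CAST. The neighbouring tile at 37139900 was at 70.8 and 88.7% in X1 embryos and 86.2 and 87.5% in X1 fibroblasts, against 51.2 and 44.3% in BDF1-CAST embryos and 55.1 and 48.8% in BDF1-CAST fibroblasts. It was not called. The CpG at 37139700 described above, in the same block, showed no such split by strain.

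The change between stages was compared between strains tile by tile. By mean level it was -2.04 points in X1 and -4.89 points in BDF1-CAST over the protocadherin tiles. The product of stage and strain passed an adjusted p under 0.05 in 0 of 272 tiles (0% of all tiles), by the quasi-binomial model and by limma on arcsine values. At an unadjusted p under 0.05 the quasi-binomial model had 25 tiles and limma 22, and over all tiles the share was 8.96% by the quasi-binomial model. With 2 samples per strain and stage, a like change in both strains is not shown by that.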

How the data were processed

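The authors deposited, for each of 9 libraries, counts of calls seen and of methylated calls per CpG, per the deposited description of the files. MspI-digested, bisulfite-converted DNA was sequenced, per the labels' protocols, and the submitters' processing notes name mm9 as the build. Aligner and caller were not given in the sources used. The deposited tile table of methylation as a fraction served for CpG density, a score the authors computed, and as a check. Its 18 columns of other samples were not used. The check covered every sample but fibroblast sample 1. Of the 234 to 271 protocadherin tiles per sample with both values, 99.1 to 100% agreed within 0.001 when recomputed from CpGs with at least 5 calls. The library tagged as a resequencing was summed with fibroblast library 1.

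Levels are methylated over all calls summed in a tile. The model is described with the results. R 4.3.3 and limma 3.58.1 (squeezeVar) moderated its dispersion, which had a floor of 1. The model was also run on simulated data with the same spread in both stages, which does not cover the wider spread of the embryos. Other steps used Python 3.11.15, numpy 2.4.6, pandas 2.3.3 and scipy 1.17.1. Alternatives covered call minimums of 10 and 20, the resequenced library, the strain term, a replicate block, left-out samples, minimum differences, weighting, and limma on arcsine square roots. Named tiles were the called ones by size, the most and least methylated tile in fibroblasts of each cluster, the tile called between strains, the longest block of each cluster, and blocks whose groups did not overlap. The interval, the lists and the tests were chosen with earlier results of these data known. Whether samples are separate animals or cultures is not stated, so p-values reflect only how these samples vary, which may be technical variation, and a call is not an independent molecule. No sequence is printed.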

Additional observations from a re-analysis of the deposited data

Results flagged for a closer look

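Single samples stood apart from the other 3 of their stage at 5 named tiles, among 54 sets of 4 values examined. Chance marks about 1 in 20 such sets where values are not tied. In 4 of the 7 cases the other 3 samples were tied at 0 or 100%, so 1 or 2 calls were enough to mark the sample, and that rate does not hold for them. At the gamma tile at 37859500, embryo sample 2 was at 30.6%, against 92.5 to 100% in the other embryo samples. At the least methylated beta tile, at 37454400, embryo sample 1 was at 43.8%, against 0 to 7.14% in the others. At the alpha tile at 37139700, embryo sample 2 was at 4.55% where the others were at 0, and fibroblast sample 1 was at 51.0% where the others were at 69.2 to 72.7%. At the alpha tile at 37145900, embryo sample 4 was at 87.5% beside 100% in the others. At the alpha tile at 37249500, embryo sample 1 was at 1.92% and fibroblast sample 1 at 1.68%, each beside 0 in the others.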

How the results depend on the processing

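The mean differences of the intervals, the share of tiles at 20 to 80% and the change of gamma tiles at 20 to 60% each moved by less than the SD between samples under the alternatives run. The mean difference ranged, with each sample left out, from -5.10 to -1.80 points over all protocadherin tiles, from -5.48 to -1.63 in alpha, from -10.9 to -7.54 in beta, from -9.08 to -5.88 between beta and gamma and from -1.36 to 1.88 in gamma. The gamma change ranged from 4.19 to 7.76 points with a sample left out, and was 8.62 points with 10 calls and 9.11 points with 20 calls.

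The count of 9 called protocadherin tiles became 5 with 20 calls, 5 with limma, 14 with no minimum difference, 4 with 30 points and 0 to 9 with a sample left out. The genome's 20068 became 12826 with 10 calls, 5750 with 20 calls, 9725 with limma and 0 to 21557 with a sample left out. The strain count of 1 became 2 with both libraries of fibroblast sample 1 as separate samples, and 0 without the stage term, with limma and with any sample left out. Over all tiles, same-numbered embryo and fibroblast samples deviated together by correlations of 0.0964, 0.105, 0.173 and 0.0356. Not every sample correlated best with its own number. Correlations this weak cannot show whether same-numbered samples share a donor, and the labels do not state it. With a replicate block the count was 0 at these loci and 0 over the genome, with 41 protocadherin tiles at an unadjusted p under 0.05.

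Among tiles that were not called, the difference changed sign at 37249500 (-0.0598 with libraries 1 and 1a as separate samples, -0.420 without embryo sample 1, -0.0795 without fibroblast sample 2, 3 or 4, and up to 0.481 without fibroblast sample 1), at 37454400 (-3.51 without embryo sample 1, up to 11.1 without embryo sample 3) and at 37859500 (3.14 without embryo sample 2, down to -20.0 without embryo sample 3). The cause was not tested.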
